A study of Mus musculus with 24 samples.

Results

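The 42 genes described here encode the enzymes with which the liver breaks down amino acids and turns their nitrogen into urea, and they were chosen by name, as enzymes of tyrosine, tryptophan, serine, threonine, glycine, histidine, proline, ornithine, glutamate, branched-chain amino acid, lysine, methionine and cysteine breakdown and of the urea cycle. All 42 were found by an exact match of the gene name on the array, among 37074 gene names in all, of which 20192 were measured above background and tested. They had 70 probes on the array, of which 67 were tested, and each gene was read from its brightest tested probe, which was well above background on all 24 arrays for 42 of 42 genes. RNA of whole liver was measured with 1 Agilent mouse array in 1 colour per mouse, in 3 groups of male C57Bl6J mice of the third generation of 2 lineages, killed while fasting. The reference mice (9 mice, STD_Cont in the labels) came from the control lineage, whose growing diet held high-oleic sunflower oil, and were fed a low-fat diet. HFoleic mice (8 mice, HFD_Cont) came from the same control lineage and were fed an obesogenic high-fat diet. HFepa mice (7 mice, HFD_O3) came from a lineage given fish oil rich in eicosapentaenoic acid (EPA), an omega 3 fatty acid, and were fed the same obesogenic diet. HFoleic against reference therefore asks what the diet did within the control lineage. HFepa against HFoleic asks what the lineage, together with the oil of its growing diet, did under the obesogenic diet. Lineage and oil cannot be told apart in that comparison. HFepa against reference changes diet, lineage and oil at once, and these cannot be told apart there, since no low-fat mice of the EPA lineage were measured.

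Amino acids that are not needed for protein are stripped of nitrogen in the liver, and their carbon skeletons enter gluconeogenesis, ketone bodies or oxidation. The nitrogen is collected as ammonia and aspartate and disposed of as urea, in a cycle that begins in mitochondria and ends in the cytosol, mostly in hepatocytes near the portal vein. Many of these enzymes are known to be induced by fasting, glucagon, glucocorticoids and a protein-rich diet and lowered by insulin. The methionine cycle supplies methyl groups and, through transsulfuration, cysteine, from which taurine is made.

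The levels below come from single 60-base probes, and those of the urea cycle enzymes Cps1, Asl and Arg1 and of the serine dehydratase Sds are shown because the falls of the urea cycle and of serine breakdown were read from them. They are written 5′ to 3′ as on the array. The scanner files place them on mouse build mm9 at chr1:67276029-67276088 (plus strand), chr5:130487513-130487736 (minus strand, a span longer than the probe), chr10:24636194-24636253 (minus strand) and chr5:120933105-120933164 (plus strand). At least 1 reading frame of each was free of stop codons, and all 4 were designed on a RefSeq mRNA.
Cps1: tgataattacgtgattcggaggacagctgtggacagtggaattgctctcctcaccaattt
Asl: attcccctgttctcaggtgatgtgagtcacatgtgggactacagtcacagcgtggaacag
Arg1: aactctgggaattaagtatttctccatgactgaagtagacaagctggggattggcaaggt
Sds: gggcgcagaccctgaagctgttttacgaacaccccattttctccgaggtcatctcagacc

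Values are log2 signals after quantile normalization, so a difference of 1 is a doubling, and the level of one gene cannot be set against that of another because probes differ in how well they bind. Between 28804 and 34432 of 56605 probes per array were well above background, and 2 arrays of one group correlated at 0.975 to 0.996 across probes. The tissue was checked on 6 tested hepatocyte markers, whose summed linear signal was 922574 to 1007020 in the reference, 960493 to 1048090 in HFoleic and 967728 to 1038320 in HFepa, and limma called none of the 6 in any comparison. Reference replicate 5 stood apart from the others. It had the lowest summed signal of 8 pericentral genes (151007, against 271736 to 300292 in the other reference mice). It also had the highest of the stellate cell and fibroblast markers (52094) and of the cholangiocyte markers (987.9). For 3 adipocyte markers, reference replicates 4 and 5 had sums of 9815 and 7891, against 979.7 to 1384 in the other reference mice. In reference replicate 5 that sum came mostly from Fabp4 (log2 signal 12.9, against 5.99 for Plin1 and 7.26 for Lep). Lep was lowest in that mouse among the reference mice. In bulk tissue fewer cells of a type and less RNA per cell cannot be told apart. Reference replicate 5 was also the highest reference mouse for 9 of the 15 members called below, whose values without it are given below.

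In HFoleic, 14 of the 42 genes were called lower than in the reference (33.3%, adjusted p under 0.05 in limma), where 3.55% of the 20192 genes tested were called lower. Glud1 was the 1 member called higher with all mice in the fit (2.38% of members, where 4.52% of all genes tested were called higher). The median log2 fold change of the 42 was -0.21, with 31 of 42 below 0, and the median over all genes tested was -0.01. The fall was uneven across the module. It took in 3 of 6 urea cycle genes, 3 of 6 methionine genes, 3 of 5 tyrosine genes and 2 of 5 genes of serine, threonine, glycine and glyoxylate, but 0 of 2 histidine genes by their brightest probes and 0 of 5 genes of the branched-chain pathway. Without reference replicate 5, limma called the same 15 members, where 8.19% of all genes tested were called. The 9 genes for which it was the highest reference mouse then had -0.995 (Sdsl), -1.04 (Asl), -0.84 (Cps1), -0.77 (Sds), -0.70 (Cth), -0.63 (Aass), -0.55 (Tat), -0.45 (Hgd) and -0.38 (Gls2), with adjusted p-values of 0.00111 to 0.0235. Without reference replicate 8 the 14 falls stayed called, but 5 members were called higher in place of 1, namely Haao, Prodh2, Aldh4a1, Glud1 and Amt (11.9% of members), where 6.29% of all genes tested were called higher. In 4 other leave-outs 1 more member was called higher beside Glud1, which was Amt without HFoleic replicate 3, Aldh4a1 without reference replicate 2, and Haao without HFoleic replicate 5 or without reference replicate 4. Ass1 was also called lower, making 15 lower members, without HFoleic replicate 1 or without reference replicate 9. Of all genes tested, 2.96% and 3.32% were called lower in these fits.

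In HFepa against the same reference mice, limma called 0 of 42 members, where 0.391% of all genes tested were called in either direction. At an unadjusted p under 0.05, 17 members were lower (40.5%, where 7.01% of all genes tested were lower) and 1 was higher (2.38%, where 6.99% were higher). By the methods' t-test, 0 members and 0 of 30002 probes passed after adjustment. At an unadjusted p under 0.05 by that test 16 members passed. The share over all genes was not counted, so nothing about the members can be read from that number. The median log2 fold change of the 42 was -0.18, with 33 of 42 below 0 and a median over all genes of 0.00. This count of 0 rests on single mice, since it was 5 without reference replicate 8 (Tat, Asl, Arg1 and Cth lower and Glud1 higher), 2 without HFepa replicate 3 (Hgd and Cth) and 1 without reference replicate 3 or reference replicate 6 (Cth in each). Of all genes tested, 1.82%, 0.882%, 0.456% and 0.48% were called in these 4 fits, in the same order, against 0.391% with all mice. Without reference replicate 5 it was 0, the smallest adjusted p of the 15 members named below was 0.0748 (Cth, -0.55), and Sds had -0.59 (adjusted p = 0.0804).

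Between HFepa and HFoleic, limma called 0 of 42 members and 0 of all 20192 genes tested (0%). At an unadjusted p under 0.05, 9 members differed (21.4%, where 9.96% of all genes tested did), namely Sdsl, Tdo2, Cps1, Asl, Mat1a and Ahcy higher in HFepa and Kmo, Gstz1 and Aldh4a1 lower. The methods' t-test gave 0 members and 0 of 30003 probes after adjustment. Before adjustment it gave 8 members. Here too the share over all genes was not counted, and nothing about the members can be read from that number. The difference between lineages under the diet had a median over members of 0.04, and the comparisons of HFoleic and HFepa with the reference use the same 9 reference mice, so the values of both are set side by side below. The 15 called members given in full below were called in HFoleic, a choice that favours larger changes in HFoleic than in HFepa.

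**Figure D1:**
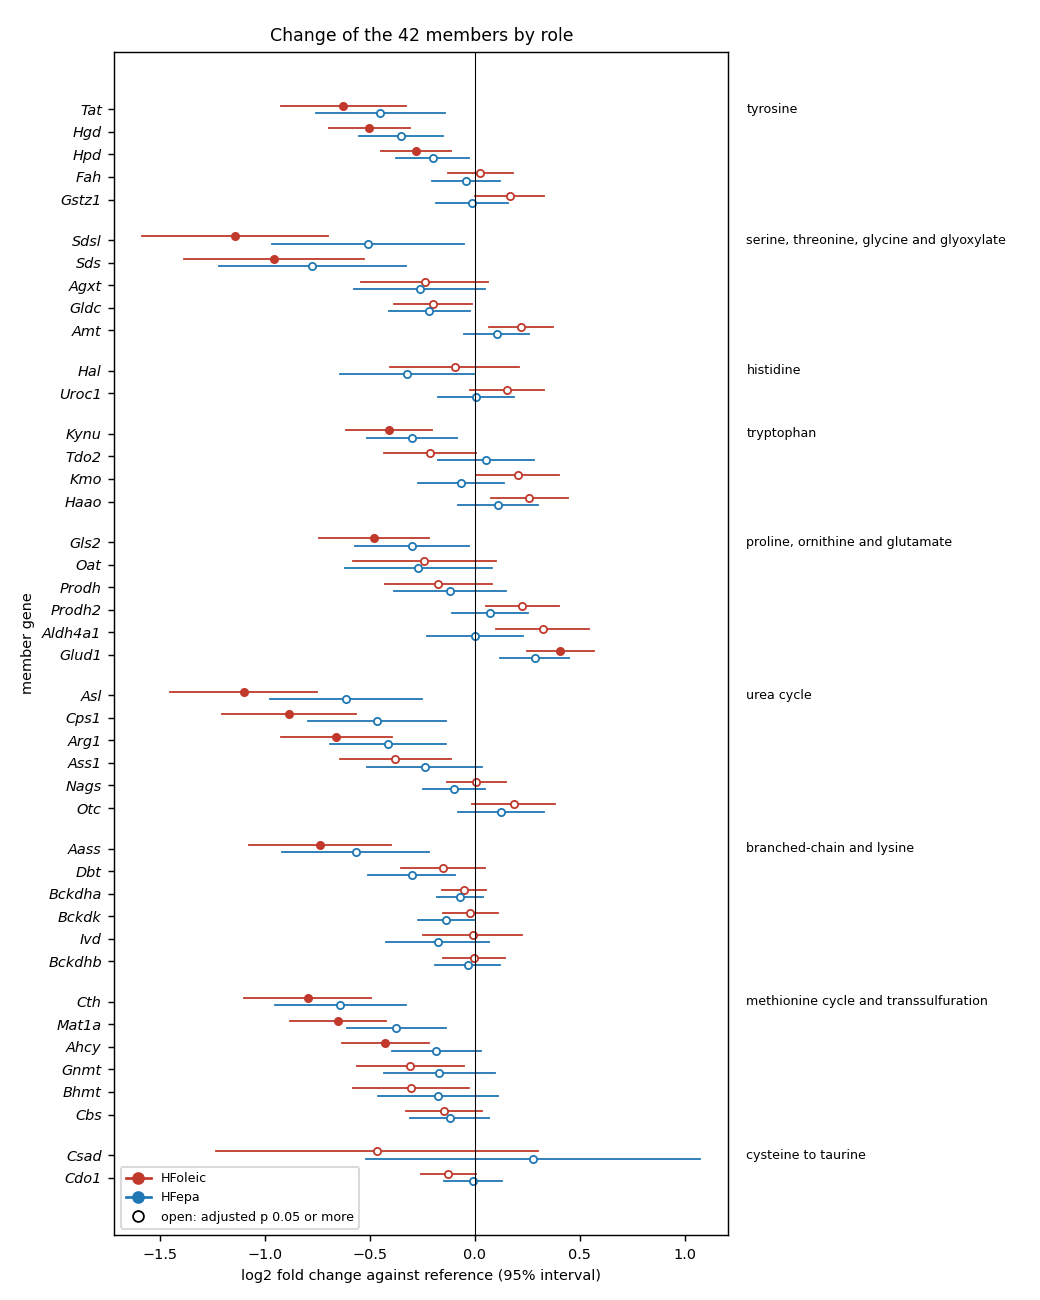
Log2 fold change against the reference of each of the 42 genes, grouped by role, with the 95% interval of limma, for HFoleic (red) and HFepa (blue), filled where the adjusted p was under 0.05. Filled points occur in HFoleic, 14 to the left of 0 and Glud1 to the right, and 0 HFepa points are filled.

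Carbamoyl-phosphate synthetase 1 (Cps1) catalyses the entry of ammonia into the urea cycle in the mitochondrion. The lowest, median and highest log2 signals of Cps1 were 13.58, 13.83 and 14.24 in the reference, 12.67, 12.95 and 13.40 in HFoleic and 12.69, 13.61 and 13.92 in HFepa. All 8 HFoleic mice lay below every reference mouse, whereas HFepa spread over both ranges, with 3 of 7 mice below the lowest reference mouse. HFoleic fell to 54.1% of the reference level, a log2 fold change of -0.89 ± 0.15 (SE) with adjusted p = 0.00166. The HFepa value was -0.47 ± 0.16 (SE) with adjusted p = 0.177, and HFepa exceeded HFoleic by 0.42 (95% interval 0.08 to 0.76, adjusted p = 0.396).

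Argininosuccinate lyase (Asl), which splits argininosuccinate into arginine and fumarate in the cytosol, had the smallest adjusted p of the module. Its lowest, median and highest log2 signals were 13.78, 14.40 and 15.08 in the reference, 13.08, 13.47 and 13.76 in HFoleic and 13.39, 14.03 and 14.36 in HFepa. The HFoleic mice lay just below the range of the reference, and 2 of 7 HFepa mice did. HFoleic was at 46.5% of the reference level (-1.10 ± 0.17 (SE), adjusted p = 0.000683), and a dimmer probe of Asl was also called (-0.91, adjusted p = 0.0275). HFepa was at 65.3% of it (-0.62 ± 0.18 (SE), adjusted p = 0.104).

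Arginase 1 (Arg1) releases urea from arginine and closes the cycle. Reference mice ran from 14.47 through a median of 15.00 to 15.47, HFoleic mice had 14.19, 14.45 and 14.74 as lowest, median and highest, and HFepa mice 14.36, 14.68 and 14.90. Low in HFoleic and intermediate in HFepa, the values overlapped with the low end of the reference, and 6 of 8 HFoleic mice lay below all reference mice. The change of Arg1 in HFoleic was -0.66 ± 0.13 (SE) with adjusted p = 0.00332, and in HFepa -0.41 ± 0.13 (SE) with adjusted p = 0.15. The remaining enzymes of the cycle did not pass the test in HFoleic with all mice in the fit, though Ass1 did in the leave-outs given above. Argininosuccinate synthase (Ass1), which joins citrulline to aspartate, had -0.38 (adjusted p = 0.0719), ornithine transcarbamylase (Otc), which makes citrulline, 0.18 (adjusted p = 0.276), and Nags, which makes the activator of Cps1, 0.01 (adjusted p = 0.972). The urea cycle thus held both falls past the threshold and a gene, Nags, whose 95% interval ran from -0.13 to 0.15.

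**Figure D2:**
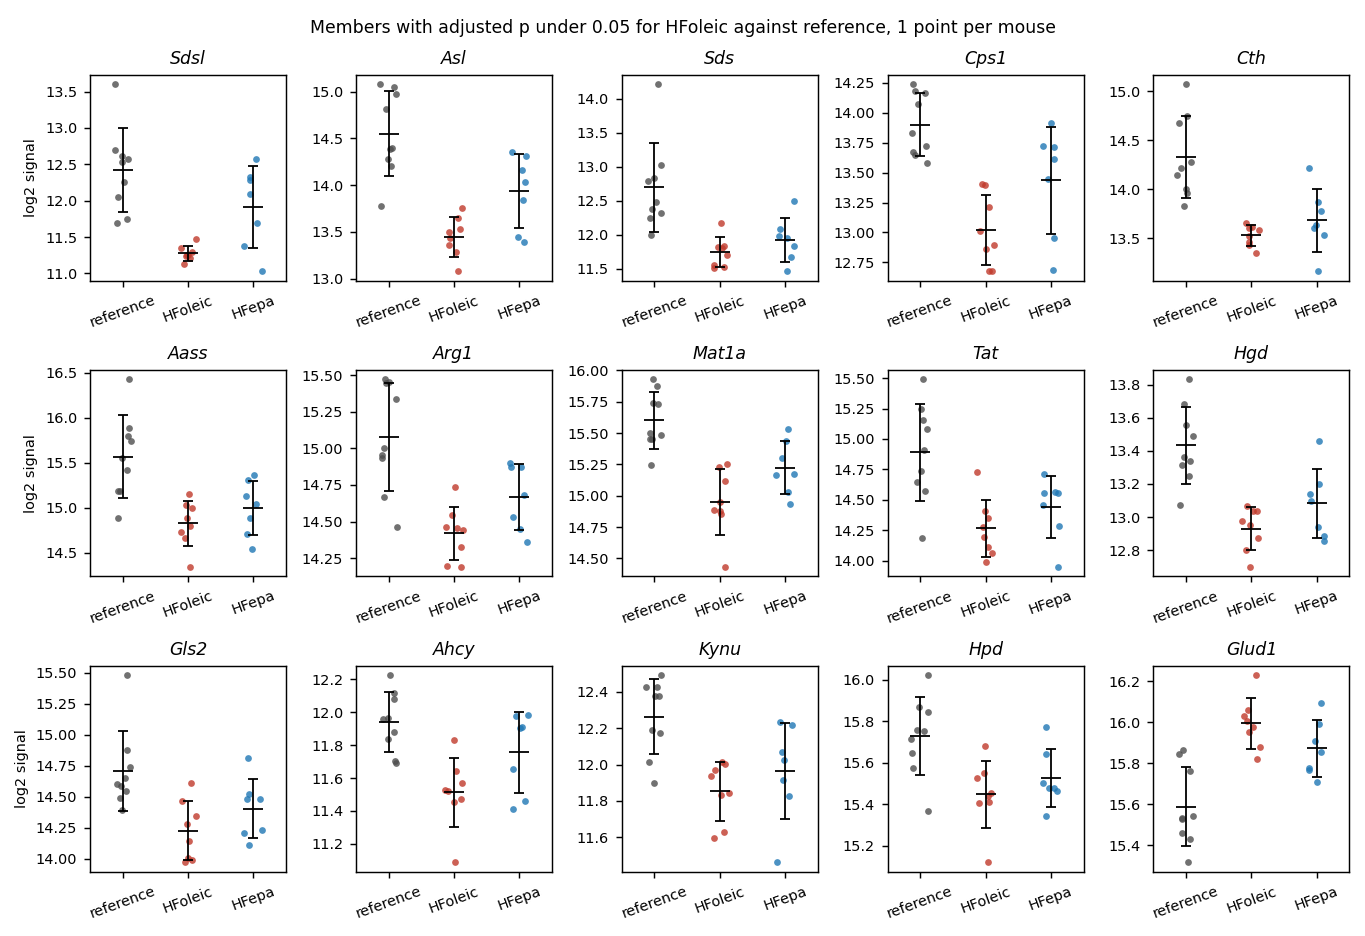
Log2 signal of the 15 members with an adjusted p under 0.05 for HFoleic against reference, 1 point per mouse (9 reference, 8 HFoleic and 7 HFepa mice), with the mean and SD as bars and a separate log2 axis for each gene. In Sdsl, Asl, Cps1, Cth and Hgd every HFoleic mouse lies below every reference mouse, and in Glud1 every HFoleic and HFepa mouse lies above the reference mean.

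Sds and Sdsl, the serine dehydratase that feeds serine and threonine into gluconeogenesis and its related enzyme, were among the 3 genes of the module that fell most in HFoleic. The lowest, median and highest log2 signals of Sdsl were 11.69, 12.53 and 13.61 in the reference, 11.13, 11.25 and 11.48 in HFoleic and 11.03, 12.09 and 12.57 in HFepa. HFoleic mice lay close together, with an SD of 0.10 against 0.58 in the reference and 0.56 in HFepa, and all 8 were below every reference mouse. Sdsl was at 45.3% of the reference in HFoleic (-1.14 ± 0.21 (SE), adjusted p = 0.00247) and at 70.2% in HFepa (-0.51 ± 0.22 (SE), adjusted p = 0.311). HFepa exceeded HFoleic by 0.63 (95% interval 0.16 to 1.10, adjusted p = 0.347), with 6 of 7 HFepa mice above the HFoleic mean.

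For Sds the lowest, median and highest were 11.9997, 12.48 and 14.22 in the reference, 11.51, 11.75 and 12.17 in HFoleic and 11.46, 11.95 and 12.49 in HFepa. The highest reference value belonged to reference replicate 5, far above the next mouse, and 7 of 8 HFoleic and 5 of 7 HFepa mice were below all reference mice. The change was -0.96 ± 0.21 (SE) in HFoleic (adjusted p = 0.00633) and -0.78 ± 0.22 (SE) in HFepa (adjusted p = 0.0994). Without reference replicate 5 both Sds and Sdsl kept an adjusted p of 0.00275 in HFoleic, and the HFepa values were -0.59 (Sds) and -0.36 (Sdsl, adjusted p = 0.45). A second Sds probe, designed on an Ensembl transcript and far dimmer, gave -0.13 (adjusted p = 0.563). Of the glycine cleavage system, Gldc had -0.20 (adjusted p = 0.193) and Amt 0.22 (adjusted p = 0.0701) in HFoleic, and the glyoxylate aminotransferase Agxt had -0.24 (adjusted p = 0.369).

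Tyrosine is degraded in 5 steps of this module, and the first, the second and the third passed the test. Tyrosine aminotransferase (Tat), the rate-limiting enzyme, had lowest, median and highest log2 signals of 14.19, 14.91 and 15.49 in the reference, 13.99, 14.23 and 14.73 in HFoleic and 13.95, 14.55 and 14.72 in HFepa. The ranges overlapped, but 8 of 8 HFoleic and 7 of 7 HFepa mice lay below the reference mean. Tat was at 64.8% of the reference in HFoleic (-0.63 ± 0.14 (SE), adjusted p = 0.00858) and at 73.1% in HFepa (-0.45 ± 0.15 (SE), adjusted p = 0.159).

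Homogentisate dioxygenase (Hgd), which opens the aromatic ring, measured 13.07, 13.36 and 13.83 (lowest, median and highest) in the reference, 12.70, 12.96 and 13.07 in HFoleic and 12.86, 13.10 and 13.46 in HFepa. All 8 HFoleic mice lay below every reference mouse, by less than the rounding of these values, and 3 of 7 HFepa mice did. Hgd changed by -0.50 ± 0.09 (SE) in HFoleic (adjusted p = 0.00239) and had -0.35 ± 0.10 (SE) in HFepa (adjusted p = 0.099). Its second, dimmer probe was the 1 probe of the module that limma called in HFepa against reference (-0.72, adjusted p = 0.0282), and it was also called in HFoleic (-0.77, adjusted p = 0.0021). The step before, 4-hydroxyphenylpyruvate dioxygenase (Hpd), measured 15.37, 15.75 and 16.02 in the reference, 15.12, 15.45 and 15.68 in HFoleic and 15.34, 15.48 and 15.77 in HFepa. Its ranges overlapped widely, the change in HFoleic was -0.28 ± 0.08 (SE) (adjusted p = 0.0345), and this call was lost in 5 of 13 alternative settings and in 9 of 24 leave-outs, with an adjusted p of up to 0.093. The last steps, Gstz1 (0.17, adjusted p = 0.237) and Fah (0.03, adjusted p = 0.894), did not pass, and the 95% interval of Fah ran from -0.13 to 0.18.

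Methionine adenosyltransferase 1A (Mat1a) makes S-adenosylmethionine, the methyl donor of the liver. Its lowest, median and highest log2 signals were 15.25, 15.50 and 15.93 in the reference, 14.43, 14.92 and 15.25 in HFoleic and 14.93, 15.18 and 15.53 in HFepa. HFoleic was low, with 7 of 8 mice below all reference mice, and HFepa lay between, with 4 of 7. Mat1a was at 63.6% of the reference in HFoleic (-0.65 ± 0.11 (SE), adjusted p = 0.00135) and at 77.1% in HFepa (-0.38 ± 0.11 (SE), adjusted p = 0.128), and HFepa exceeded HFoleic by 0.28 (95% interval 0.03 to 0.52, adjusted p = 0.441).

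Cystathionine gamma-lyase (Cth) releases cysteine at the end of transsulfuration. Cth measured 13.83, 14.22 and 15.08 (lowest, median and highest) in the reference, 13.34, 13.55 and 13.66 in HFoleic and 13.16, 13.63 and 14.21 in HFepa. All 8 HFoleic mice lay below every reference mouse, within a narrow range (SD 0.11 against 0.42 in the reference), and 5 of 7 HFepa mice did. Its change was -0.80 ± 0.15 (SE) in HFoleic (adjusted p = 0.00224) and -0.64 ± 0.15 (SE) in HFepa (adjusted p = 0.0543), the smallest adjusted p of any member in HFepa. With a stricter filter on dim probes the same HFepa value had an adjusted p of 0.0478, and leaving out 1 mouse gave 0.0165 to 0.106.

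Adenosylhomocysteinase (Ahcy), which splits S-adenosylhomocysteine after methyl transfer, measured 11.69, 11.96 and 12.23 in the reference, 11.09, 11.52 and 11.83 in HFoleic and 11.41, 11.90 and 11.98 in HFepa. HFoleic was low, with 7 of 8 mice below all reference mice and 1 inside the reference range, and HFepa overlapped with both. The change of Ahcy was -0.43 ± 0.10 (SE) in HFoleic (adjusted p = 0.00952) and -0.18 ± 0.10 (SE) in HFepa (adjusted p = 0.465). All 6 genes of this group had values below 0 against the reference in both comparisons, and the 3 others did not pass in either by their brightest probes. A dimmer probe of Bhmt was called lower in HFoleic (-1.28, adjusted p = 0.00735). In HFoleic Gnmt, which uses up S-adenosylmethionine, had -0.31 (adjusted p = 0.142), Bhmt, which remakes methionine from homocysteine with betaine, -0.30 (adjusted p = 0.186), and Cbs, the first transsulfuration enzyme, -0.15 (adjusted p = 0.355).

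Cysteine dioxygenase (Cdo1) and cysteine sulfinate decarboxylase (Csad), which lead to taurine, did not pass in any comparison. Csad was the most variable member in each group, with log2 signals of 14.07 ± 0.74 (SD, n = 9), 13.60 ± 1.04 (SD, n = 8) and 14.34 ± 0.62 (SD, n = 7) in reference, HFoleic and HFepa. HFoleic mice covered 12.36, 13.54 and 15.30 as lowest, median and highest and so reached beyond the range of the other groups at both ends. The difference between HFepa and HFoleic was 0.74, with a 95% interval of -0.07 to 1.56 and an adjusted p of 0.563.

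Alpha-aminoadipic semialdehyde synthase (Aass) starts the breakdown of lysine. Its lowest, median and highest log2 signals were 14.89, 15.56 and 16.42 in the reference, 14.34, 14.84 and 15.16 in HFoleic and 14.55, 15.04 and 15.36 in HFepa. HFoleic and HFepa both sat at the low end of the reference range, with 5 of 8 and 3 of 7 mice below all reference mice. Aass was at 59.9% of the reference in HFoleic (-0.74 ± 0.16 (SE), adjusted p = 0.00699) and at 67.5% in HFepa (-0.57 ± 0.17 (SE), adjusted p = 0.121). Without reference replicate 5, its highest reference mouse, the HFoleic change was -0.63 (adjusted p = 0.00948). The branched-chain genes differed from Aass in that 0 of 5 passed. In HFoleic the dehydrogenase subunits Bckdha and Bckdhb had -0.05 and 0.00, its kinase Bckdk -0.02, its core Dbt -0.15 and Ivd, of leucine breakdown, -0.01, with adjusted p-values of 0.398 to 0.984. By these brightest probes the 95% intervals in HFoleic reached no lower than -0.35, in Dbt, and that of a dimmer Ivd probe reached -0.39. In HFepa, Bckdha, Bckdhb, Bckdk, Dbt and Ivd had -0.07, -0.03, -0.14, -0.30 and -0.18. Their adjusted p-values there were 0.164 to 0.897, and the 95% interval of Dbt ran from -0.51 to -0.09.

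Kynureninase (Kynu) was the 1 gene of tryptophan breakdown that passed by its brightest probe. It measured 11.90, 12.37 and 12.49 (lowest, median and highest) in the reference, 11.60, 11.89 and 12.01 in HFoleic and 11.46, 12.02 and 12.23 in HFepa. All 8 HFoleic and all 7 HFepa mice lay below the reference mean, with overlapping ranges. The change was -0.41 ± 0.10 (SE) in HFoleic (adjusted p = 0.0126) and -0.30 ± 0.10 (SE) in HFepa (adjusted p = 0.186). The call of Kynu was lost when its 2 probes were averaged (-0.26, adjusted p = 0.205). Tdo2, the first and rate-limiting step, had -0.21 in HFoleic (adjusted p = 0.253), while Kmo and Haao, which act beside Kynu in the kynurenine branch, had 0.20 and 0.26 (adjusted p = 0.22 and 0.0788). A dimmer probe of Kmo was called higher in HFoleic (0.30, adjusted p = 0.0434). The 4 genes thus pointed both ways.

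Glutamate stands where amino acid nitrogen meets the urea cycle, and 2 of its enzymes passed in opposite directions. Glutaminase 2 (Gls2), the liver enzyme that frees ammonia from glutamine, measured 14.39, 14.60 and 15.48 in the reference, 13.97, 14.21 and 14.61 in HFoleic and 14.11, 14.48 and 14.81 in HFepa. Reference replicate 5 was again the highest mouse, and 6 of 8 HFoleic and 3 of 7 HFepa mice lay below all reference mice. Gls2 had -0.48 ± 0.13 (SE) in HFoleic (adjusted p = 0.0206; without reference replicate 5, -0.38 and 0.0235) and -0.30 ± 0.13 (SE) in HFepa (adjusted p = 0.311).

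Glutamate dehydrogenase 1 (Glud1), which releases ammonia from glutamate in mitochondria, was the member that rose with all mice in the fit. It measured 15.32, 15.53 and 15.87 in the reference, 15.82, 15.99 and 16.23 in HFoleic and 15.71, 15.86 and 16.10 in HFepa. All 8 HFoleic and all 7 HFepa mice lay above the reference mean, but the ranges overlapped, with 1 of 8 HFoleic and 4 of 7 HFepa mice below the highest reference mouse. Glud1 was at 133% of the reference in HFoleic (0.41 ± 0.08 (SE), adjusted p = 0.00265) and at 122% in HFepa (0.29 ± 0.08 (SE), adjusted p = 0.0994). A second probe rose by 0.38 (adjusted p = 0.0195), and another, designed on an Ensembl transcript, gave -0.02 (adjusted p = 0.933). Of the same group, Prodh, Prodh2 and Aldh4a1 had -0.17, 0.23 and 0.32 in HFoleic (adjusted p = 0.461, 0.111 and 0.0667), and ornithine aminotransferase (Oat) had -0.24 (adjusted p = 0.437). For Aldh4a1 the difference of HFepa from HFoleic was -0.32 (95% interval -0.56 to -0.09, adjusted p = 0.339).

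Of the 42 members, 5 (11.9%) had every HFoleic mouse below every reference mouse, namely Sdsl, Hgd, Cps1, Asl and Cth, where 0.243% of all genes tested did. For HFepa this held for 0 of 42 by their brightest probes, where it held for 0.0644% of all genes. By the dimmer probe of Gldc all 7 HFepa mice lay below every reference mouse (-0.83 in limma, adjusted p = 0.0576).

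**Figure D3:**
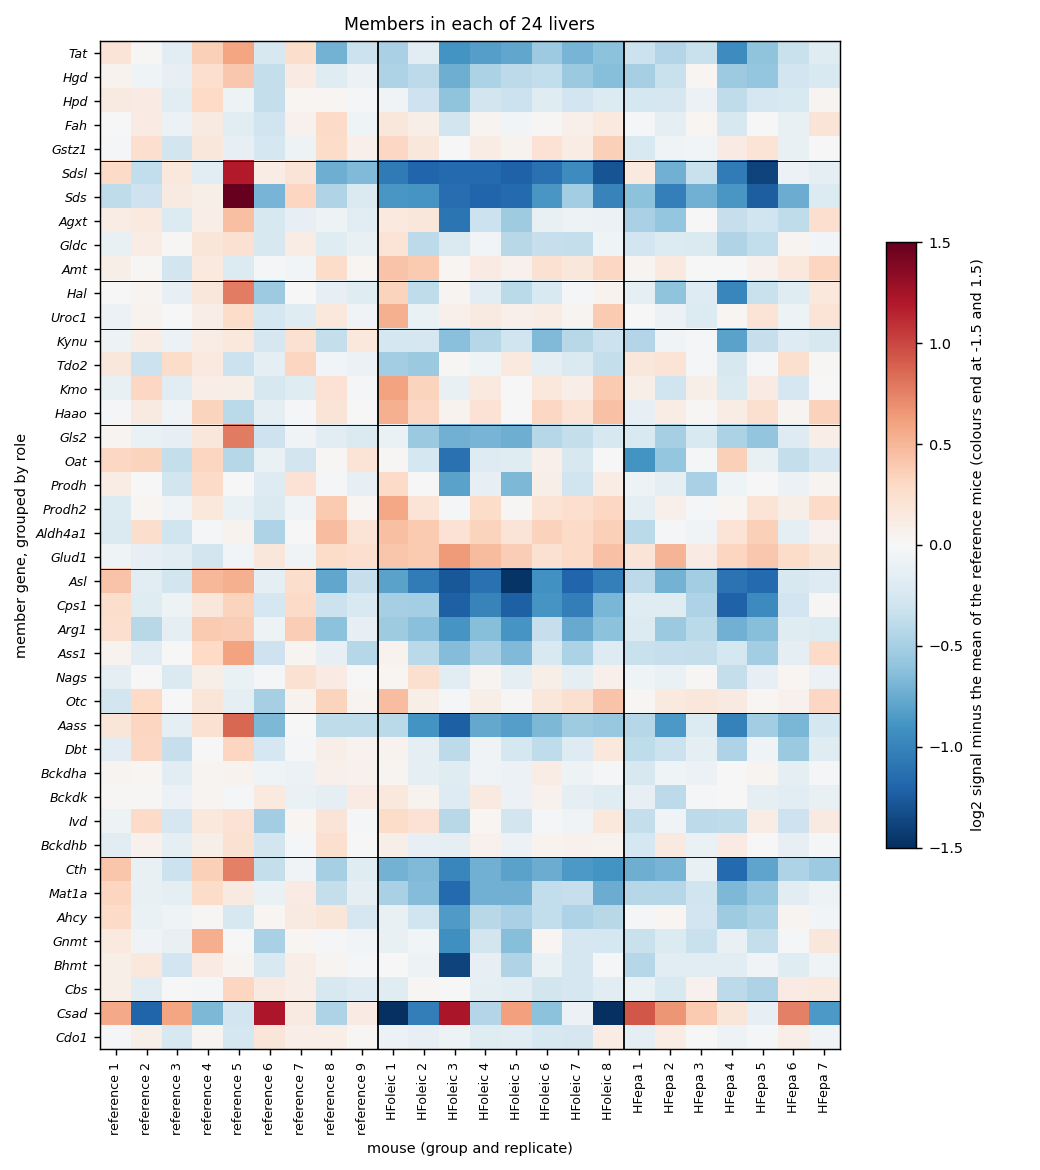
Log2 signal of each of the 42 genes (rows, grouped by role) in each of the 24 livers (columns), minus the mean of the 9 reference mice, with colours ending at -1.5 and 1.5. Blue fields run across all 8 HFoleic columns for Sdsl, Sds, Asl, Cps1, Arg1, Cth, Mat1a and Aass. The HFepa columns are blue in these rows too except for 1 mouse each in Sdsl and Cps1. These 8 rows had the largest falls in HFoleic, so the size of change in the 2 groups cannot be compared through them. Over all 42 genes the median log2 fold change was -0.21 in HFoleic and -0.18 in HFepa. Reference replicate 5 is the red column in Sds, Sdsl and Gls2.

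Mice of one group varied in the module as a whole. The mean deviation of the 42 genes from the reference mean ran from -0.19 to 0.20 in the reference, from -0.46 through a median of -0.23 to -0.08 in HFoleic and from -0.35 through -0.21 to -0.02 in HFepa. HFoleic replicate 3 was lowest of all and HFepa replicate 7 was closest to the reference mean among the high-fat mice. These ranges overlap at their ends, and no test is given because the genes were chosen with results known. Within the 3 slides the median difference of the 42 genes was -0.28, -0.19 and -0.13 for HFoleic against reference, with 27 to 32 of 42 genes lower, and -0.20, -0.15 and -0.15 for HFepa against reference, with 29 to 33 lower. Within the 2 slide rows it was -0.24 and -0.17 for HFoleic and -0.15 and -0.17 for HFepa. For HFepa against HFoleic the slides gave 0.11, -0.01 and 0.04 and the rows 0.07 and 0.04, so that the sign differed on slide 2. The score of clock genes (Per-phase minus Bmal1-phase genes, in SD units) also moved with the groups, with a mean in the reference of -0.83 ± 1.02 (SD, n = 9), in HFoleic of 0.71 ± 1.34 (SD, n = 8) and in HFepa of 0.25 ± 2.07 (SD, n = 7). With that score as a covariate 13 of 42 members were called in HFoleic (31%, where 4.05% of all genes tested were called, against 8.07% without it), without Kynu (adjusted p = 0.0887) and Gls2 (adjusted p = 0.0526). The summed linear signal of 5 periportal genes outside the module moved with the groups too. Its lowest, median and highest were 196548, 225463 and 252880 in the reference, 170192, 179702 and 199166 in HFoleic and 184122, 208530 and 235211 in HFepa, with 7 of 8 HFoleic and 2 of 7 HFepa mice below every reference mouse. Such a sum is set mostly by the brightest genes, here Pck1 and Cyp2f2 (log2 signals 17.00 and 16.61 in reference replicate 5). By gene, the median log2 fold change of the 5 was -0.10 in HFoleic and 0.08 in HFepa against the reference. Of these 5, limma called Pck1 lower in HFoleic (-0.74), the others had -0.15 to 0.30, and their part in the falls of the module was not tested.

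Several probes were tested for 22 of the 42 genes, and for 20 of these all probes had the same sign in HFoleic against reference. All probes were called for 5 genes (Sdsl, Hgd, Gls2, Asl and Aass) and no probe for 10. In 4 genes a dimmer probe was called and the brightest was not. These were Hal (histidine ammonia-lyase, -0.60 against -0.10 by the brightest), Kmo (0.30 against 0.20), Bhmt (-1.28 against -0.30) and Gldc (-0.74 against -0.20), with adjusted p-values of 0.0144, 0.0434, 0.00735 and 0.0179 for the dimmer probes. Of these 4 dimmer probes, 3 were designed on an Ensembl transcript or a GenBank cDNA rather than on a RefSeq mRNA, and whether they measure another transcript was not tested. Counting any probe, 19 of the 42 genes had a call in HFoleic (45.2%), where 9.13% of all genes tested had one. For the second histidine gene, Uroc1, the probes gave 0.15 and 0.01, and neither was called.

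**Figure D4:**
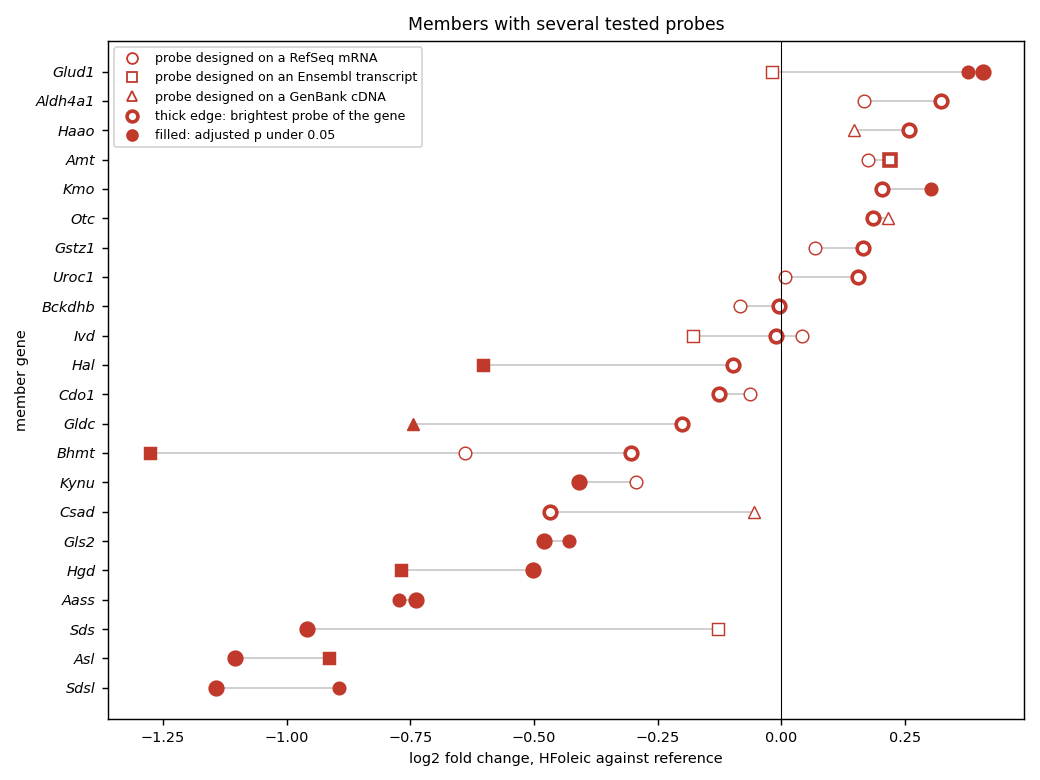
Log2 fold change of HFoleic against reference for each tested probe of the 22 members with several probes, filled where the adjusted p was under 0.05, with a thick edge for the brightest probe and a shape for the transcript it was designed on. Probes of Aass, Gls2 and Asl lie together, whereas those of Bhmt, Sds, Hal and Gldc lie far apart.

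Outside the 42, a list of 61 further amino acid genes held 56 that were tested, of which 4 were called lower and 5 higher in HFoleic (median 0.06). Of all genes tested, 3.55% were called lower and 4.52% higher in HFoleic. Asns, which makes asparagine, had -1.67 ± 0.38 (SE) (adjusted p = 0.00882). Got1, the cytosolic aspartate aminotransferase, had -1.56 ± 0.22 (SE) (adjusted p = 0.00043). The mitochondrial glutamate carrier Slc25a22 had -0.76 (adjusted p = 0.00165) and the alanine aminotransferase Gpt2 -0.70 (adjusted p = 0.00413). The tryptophan genes Ido2 and Ccbl1 rose by 0.57 and 0.38 (adjusted p = 0.038 and 0.00822). In HFepa, Got1 (-1.23, adjusted p = 0.0245) and Slc25a22 (-0.65, adjusted p = 0.0344) were called lower. Of 15 known regulators of these enzymes, limma called the coactivator Ppargc1a lower in HFoleic (-0.54, adjusted p = 0.0296) and the glucocorticoid receptor Nr3c1 (0.36, adjusted p = 0.0035) and the glucagon receptor Gcgr (0.21, adjusted p = 0.0322) higher. The shares of all genes given above for HFoleic hold here too. Ppargc1a was not called in HFepa with all mice, but was about as low there, at -0.68 to -0.51 over leave-outs of 1 mouse against -0.61 to -0.44 in HFoleic. In the RT-qPCR of the study, no significant change of Ppargc1a was marked for HFoleic against reference. In leave-outs of 1 mouse the HFoleic calls of Ido2, Gcgr and Ppargc1a were kept in 14, 15 and 18 of 24 fits (without reference replicate 5, Ido2 had 0.49 with adjusted p = 0.0658 and Gcgr 0.19 with adjusted p = 0.0547), and the HFepa calls of Got1 and Slc25a22 in 20 and 14 of 24. Klf15, a known activator of amino acid breakdown, had 0.00 (95% interval -0.20 to 0.20).

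Promoters of RefSeq (GRCm38.p6, 250 bases before to 50 after the start) were available for 31 of the 42 genes, 34 promoters in all, and were searched on both strands for motifs of factors known to act on these genes. The cAMP response element TGACGTCA was in 0 of the 34 and in 1.79% of 32851 promoters, and its shorter form TGACG, which also lies within it, was in 5 of the 34 (Aass, Csad, Gstz1, Nags and Oat) and in 20.8% of all. The FOXO motif TGTTTAC, the C/EBP motif TTGCGCAA, the HNF4 motif CAAAGTCCA and the glucocorticoid response element were in 0 of the 34, and in 3.65%, 0.183%, 0.475% and 0.00913% of all promoters. A match describes the letters in this window and nothing about binding. Of the 15 called members 6 had a promoter in the table (Tat, Hpd, Hgd, Glud1, Ahcy and Aass), and that of Aass is shown because it was the 1 among these 6 with a match, at chr6:23132987-23133236 on the minus strand, with the 250 bases before the start and the TGACG match in capitals.
Aass: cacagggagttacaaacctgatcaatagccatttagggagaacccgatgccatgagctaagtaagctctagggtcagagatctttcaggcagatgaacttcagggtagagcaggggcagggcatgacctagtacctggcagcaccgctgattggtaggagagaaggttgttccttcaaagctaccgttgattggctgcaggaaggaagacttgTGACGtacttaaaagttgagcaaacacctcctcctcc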

How the data were processed

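RNA of 24 mouse livers was hybridized to 1-colour Agilent arrays. The authors deposited, per array, scanner output (Agilent Feature Extraction 10.10.1.1) with the median signal of each spot as an intensity without normalization and the processed signal as an intensity corrected for background, and a table of log2 median signal of 32176 probes that was filtered and quantile normalized, whose filter is not given in the sources used here. The deposited files also mark each spot, with scores of 0 or 1, as an outlier and as exceeding background.

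Log2 median signals were averaged per probe without outlier spots, probes were kept if, in 1 group or more, no fewer than 75% of arrays had them well above background (30003 of 56605), and values were quantile normalized. Limma 3.58.1 (R 4.3.3; tables with data.table, version 1.17.8) fitted a group-means model to all 24 arrays, with moderated two-sided contrasts and Benjamini-Hochberg adjustment over all tested probes within a comparison. Calls were made at an adjusted p under 0.05. Intervals are 95% intervals of limma. Each mouse gave 1 array, so that errors are between animals, and the number of arrays limits the precision. A gene was read from its brightest tested probe, with the file's names and mm9 coordinates. The members and all lists were chosen with earlier results of these data known, so no list was tested. Full values are given for every member called in any comparison, other members by role, and of the further amino acid genes the 6 called with the largest change in HFoleic. The script was tested on simulated data. Alternatives were the deposited log2 table, the processed signal, normexp background correction (offset 50), filters, centring, slide, slide row or replicate number as a block, a clock score as a covariate, the methods' t-test, 2 groups only, the mean over probes, and leaving out each mouse. Sequences were read with Python 3.11.15 and pandas 2.3.3, and plots drawn with matplotlib 3.10.9.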

Additional observations from a re-analysis of the deposited data

Results flagged for a closer look

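In 9 of 126 sets of values (42 genes in 3 groups) the extreme mouse stood apart from the rest of its group, by a gap larger than Dixon's criterion at 95% allows, and chance alone gives about 1 in 20 such sets. Reference replicate 5 was highest for Sds (log2 signal 14.2, the next mouse at 13.0) and for Gls2 (15.5, the next at 14.9). HFoleic replicate 3 was lowest for Bhmt (16.3, the next at 17.3), Oat (14.9, the next at 15.7) and Fah (13.5, the next at 13.8). In HFepa the lowest mouse was replicate 1 for Bhmt (17.3), replicate 3 for Prodh (13.2), replicate 4 for Nags (10.2) and replicate 2 for Bckdk (8.47). Of these genes Sds and Gls2 were called in HFoleic, and both calls held without reference replicate 5.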

How the results depend on the processing

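Of the 15 calls of single genes in HFoleic against reference, 12 held in all 37 alternatives. Those of Kynu, Hpd and Gls2 did not. Kynu lost its call with the clock score (adjusted p = 0.0887) and with the mean over its probes (0.205), Gls2 with the clock score (0.0526) and the methods' t-test (0.0562), and Hpd with the processed signal (0.093), no filter on dim probes (0.0705), the replicate number as a block (0.079), the methods' t-test (0.0701), only 2 groups (0.0586) and 9 leave-outs (up to 0.0751). The count of members called in HFoleic was 13 to 16 across settings and 14 to 19 over leave-outs, with 19 without reference replicate 8, the 4 added ones (Haao, Prodh2, Aldh4a1 and Amt) being higher. Over all features, the settings called 1100 (clock score) to 2305 of 25509 to 56605 probes, against 2170 of 30003 in the main fit. With the mean over probes 1459 of 20192 genes were called. The leave-outs called 5.95% (without reference replicate 1) to 11.2% (without reference replicate 8) of all genes tested. In HFepa against reference the count of members was 0, except for 1 with a stricter filter on dim probes (Cth), 1 with the mean over probes (Hgd, -0.54, adjusted p = 0.0288), and 0 to 5 over leave-outs. Over all features, 166 of 25509 probes were called with that filter and 55 of 20192 genes with that mean. The leave-outs called 0% to 1.82% of all genes tested. Between HFepa and HFoleic it was 0 in every alternative run. The cause of these changes was not tested. Median log2 fold changes of the members over leave-outs were -0.25 to -0.14, -0.22 to -0.15 and -0.02 to 0.08 in the order HFoleic against reference, HFepa against reference and HFepa against HFoleic, so that the sign of the last depends on HFoleic replicate 3. The labels do not say whether equal replicate numbers pair the mice. Of 22 same-numbered pairs 3 had correlated deviations over 0.1 (range -0.30 to 0.35), and 3 of 24 arrays correlated best with their own number. These correlations do not settle whether mice were paired, since a pairing need not show in them. With the number as a block, 14, 0 and 0 members were called in the 3 comparisons, and over all 30003 probes 1747, 104 and 0 in place of 2170, 118 and 0. The brightest probe of every member was well above background on all 24 arrays.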

Other observations

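Among genes that mark zones of the liver lobule, 1 of 5 periportal and 1 of 8 pericentral genes were called in HFoleic against reference. Of all genes tested, 8.07% were called there. The periportal gene was Pck1, the gluconeogenic enzyme phosphoenolpyruvate carboxykinase, which fell (-0.74, adjusted p = 0.000602; without reference replicate 5, -0.71 and 0.00101), and in HFepa it had -0.29 (adjusted p = 0.246). The pericentral gene Lgr5 rose (0.60, adjusted p = 0.0154; without reference replicate 5, its lowest reference mouse, 0.54 and 0.0278), while glutamine synthetase (Glul), which takes up ammonia that the urea cycle leaves, had 0.35 (adjusted p = 0.0545) in HFoleic and 0.34 (adjusted p = 0.173) in HFepa, and without reference replicate 5, again the lowest, 0.26 (adjusted p = 0.0538) and 0.24 (adjusted p = 0.209). Among markers of other cell types, the stellate cell gene Lrat rose in HFoleic (0.56, adjusted p = 0.0015) and the cholangiocyte gene Sox9 fell (-0.65, adjusted p = 0.0279). Lrat was the 1 called of 5 stellate cell and fibroblast markers, whose median log2 fold change was -0.09. Sox9 was the 1 called of 3 tested cholangiocyte markers (median -0.33). Sox9 was highest in reference replicate 5 (9.23, against a reference median of 7.71). Without that mouse Sox9 had -0.48 (adjusted p = 0.015), and its call was lost without HFoleic replicate 7 or 8 (adjusted p up to 0.0571). The clock gene Nr1d2 rose in HFoleic (0.58, adjusted p = 0.01).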
